A study of Mus musculus with 4 samples.

Results

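Dying cells and shed membrane are cleared by receptors that recognise phosphatidylserine, directly or through a soluble bridge. This group holds 10 genes of such receptors, of bridging ligands and of integrin subunits. It comprises the receptors Mertk, Axl, Tyro3 and Megf10, the ligands Gas6, Pros1 and Mfge8, and the integrin subunits Itgav, Itgb5 and Itgb8. The genes were taken by symbol from the count tables, where all 10 were found among 55471 listed genes and all 10 were among the 15816 tested. The RNA came from pulled-down ribosomes of mouse brain, 2 libraries labelled cuprizone and 2 labelled mock. Every animal, controls included, was GFAP-Cre+/- Rpl22HA/wt: Cre under the GFAP promoter switches on an HA tag on 1 allele of the ribosomal protein Rpl22, so that ribosomes are tagged in any cell that has had Cre, which need not be only astrocytes. The design text gives males aged 8 to 9 weeks, chow with 0.2% cuprizone, a copper chelator that kills oligodendrocytes, or normal chow, and dissection of the corpus callosum. It names collection at 5, 5.5 and 7 weeks, whereas the sample labels read 3 weeks and batch 1 for all 4 libraries, and the labels' time is used here.

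Gas6 and Pros1 are vitamin K-dependent proteins that hold phosphatidylserine with their carboxylated end and the TAM receptor kinases (Tyro3, Axl, Mertk) with the other. Mfge8 bridges phosphatidylserine to the integrins made of Itgav with Itgb3 or Itgb5, and Itgb8, the other partner of Itgav here, is best known for activating latent TGF-beta. In the brain, Megf10 and Mertk are the receptors through which astrocytes take up synapses and debris, while Axl and Mertk also serve microglia.

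The stretch of Mfge8 that binds integrins is shown because it is the link between the ligand and the Itgav subunits in the same group. It lies in exon 3 of both coding transcripts that hold it, at chr7:79145284-79145340 (GRCm38, minus strand, GENCODE M21), read 5′ to 3′ on the coding strand. Capitals mark the codons for arginine, glycine and aspartate, the triplet that integrins recognise.
Mfge8 coding stretch: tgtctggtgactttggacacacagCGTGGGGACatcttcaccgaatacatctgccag

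The promoters of 7 genes, the 3 TAM receptors, the 3 ligands and Itgb5, are shown because these genes stood lower in both cuprizone libraries. Each line gives the 100 bases before the RefSeq start on GRCm38.p6, 5′ to 3′ on the gene's strand. Capitals mark GGGCGG or its reverse complement, the GC box bound by Sp1-family factors. RefSeq starts can differ from the GENCODE spans given further on: the windows of Tyro3 and of Itgb8 (not shown) lie inside those spans.
Mertk promoter (chr2:128698815-128698914, plus strand): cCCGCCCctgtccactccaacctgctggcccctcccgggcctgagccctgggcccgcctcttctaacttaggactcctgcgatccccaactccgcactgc
Axl promoter (chr7:25788734-25788833, minus strand): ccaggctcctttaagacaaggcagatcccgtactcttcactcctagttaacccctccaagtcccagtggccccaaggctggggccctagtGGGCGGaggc
Tyro3 promoter (chr2:119799414-119799513, plus strand): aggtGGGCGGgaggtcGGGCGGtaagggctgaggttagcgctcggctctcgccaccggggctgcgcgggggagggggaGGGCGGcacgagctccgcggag
Gas6 promoter (chr8:13494536-13494635, minus strand): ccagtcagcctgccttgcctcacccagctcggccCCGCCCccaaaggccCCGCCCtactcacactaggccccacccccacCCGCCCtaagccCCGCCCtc
Pros1 promoter (chr16:62854207-62854306, plus strand): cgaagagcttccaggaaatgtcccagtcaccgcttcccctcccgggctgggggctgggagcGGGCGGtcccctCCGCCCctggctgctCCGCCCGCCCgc
Mfge8 promoter (chr7:79149061-79149160, minus strand): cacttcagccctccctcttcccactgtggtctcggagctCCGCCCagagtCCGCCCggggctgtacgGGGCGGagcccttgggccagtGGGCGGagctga
Itgb5 promoter (chr16:33829565-33829664, plus strand): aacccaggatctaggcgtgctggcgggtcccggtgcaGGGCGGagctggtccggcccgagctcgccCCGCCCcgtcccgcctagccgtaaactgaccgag

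Promoters of 9 of the 10 genes were searched. That of Megf10, which also stood lower in both cuprizone libraries, was not. A GC box stood in this window in 7 of the 9, all but Itgav and Itgb8, against 24.7% of 32851 RefSeq promoter windows of the same length. The TATA box, searched as TATAAA on both strands, was in 0 of the 9 and in 5.56% of all windows. Gas6, Mfge8 and Pros1 had 4 GC boxes each, of which 2 overlap in Pros1, Tyro3 had 3, Itgb5 had 2, and Mertk and Axl had 1 each. The GC content of the 9 windows ran from 61% to 77%, and the background was not matched for GC content or expression. These matches describe letters in a window and show no binding, and a link between GC boxes and the folds was not tested.

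All 10 genes had a negative fold in the cuprizone libraries, and none passed the test over all genes. The levels given are counts scaled to the library total (CPM), whereas the folds and tests of edgeR also use TMM scaling factors. The edgeR quasi-likelihood test with Benjamini-Hochberg adjustment called 0 of the 10 at 0.05, and over all genes it called 0.0506% lower. At an unadjusted p under 0.05 it had 4 of the 10 lower (Mfge8, Tyro3, Gas6 and Itgb5) against 7.04% of all genes tested. DESeq2 called 1 of the 10 lower, Mfge8, and 2.85% of all genes lower, while limma-voom called 0 of the 10 and 0.24% of all genes lower. In 8 of the 10 both cuprizone libraries lay below both mock libraries, which was so for 18.9% of all genes tested. The median log2 fold, cuprizone over mock, was -0.77 over the 10 genes and 0.0006 over all genes tested. With 2 libraries against 2, an exact permutation test of a single gene cannot give a 2-sided p below 0.333, and the labels do not say whether 1 library is 1 animal.

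**Figure D1:**
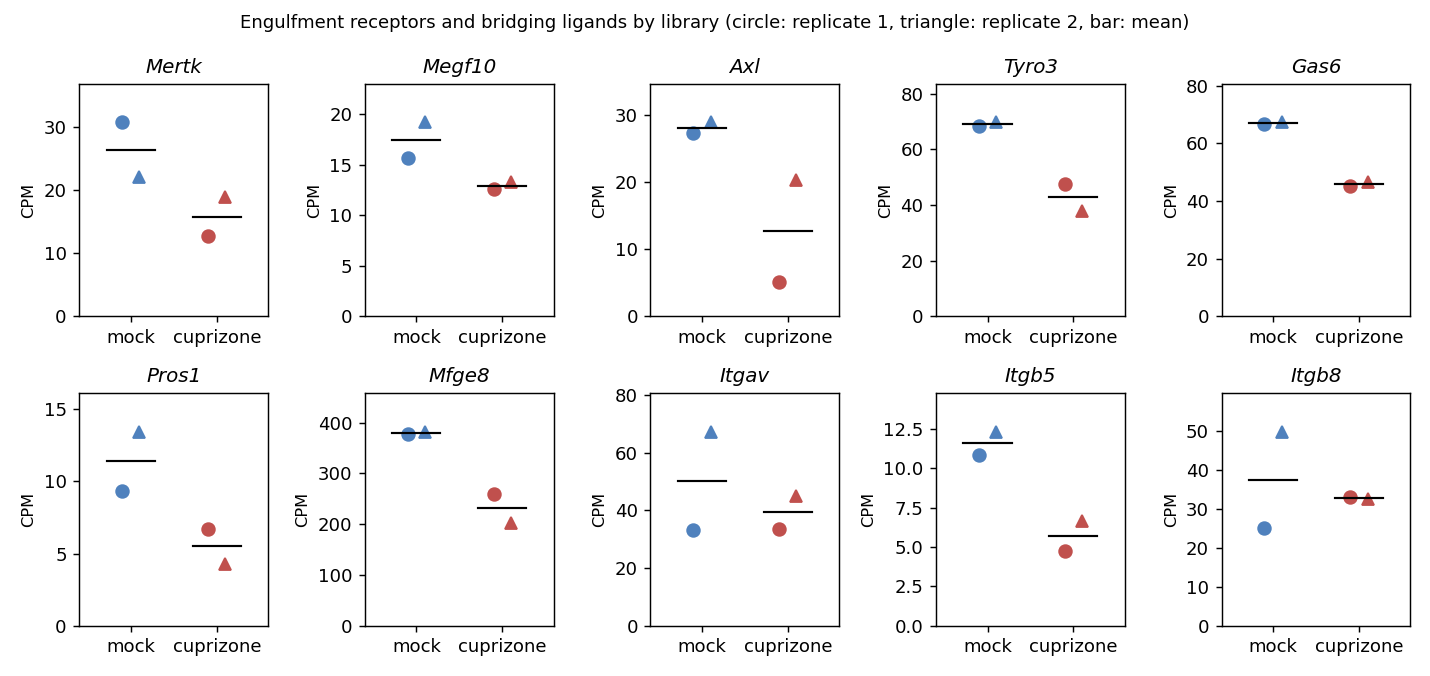
Level of each gene in CPM (vertical axis, from 0, scale set per gene) in the mock (blue) and cuprizone (red) libraries, with circles for replicate 1, triangles for replicate 2 and bars for the mean of 2 libraries. Only Itgav and Itgb8 have a mock library below a cuprizone library, in both cases mock replicate 1.

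Among the TAM receptors, Tyro3, the member most abundant in the nervous system, had 47.6 and 37.9 CPM in cuprizone replicates 1 and 2 and 68.4 and 69.6 CPM in the mock libraries. The 2 mock libraries nearly coincided and both cuprizone libraries lay well below them. Its log2 fold was -0.76 (SE 0.21), with an edgeR adjusted p of 0.247, and of 0.0796 with DESeq2.

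Mertk, a receptor for uptake by astrocytes and microglia, had 12.7 and 18.9 CPM in the cuprizone and 30.8 and 22.1 CPM in the mock libraries. The groups did not overlap, but mock replicate 2 stood closer to cuprizone replicate 2 than to the other mock library. The log2 fold was -0.81 (SE 0.35), with an edgeR adjusted p of 0.421.

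Axl, the receptor with the strongest affinity for Gas6, had 5.13 and 20.3 CPM in the cuprizone and 27.2 and 28.85 CPM in the mock libraries. Here 1 library set the size of the difference: the log2 fold was -1.20 (SE 0.62; edgeR adjusted p = 0.492), and it was -0.53 without cuprizone replicate 1 and -2.53 without cuprizone replicate 2. Within each library, per kb of transcript, Axl made up 8.11% of the summed TAM receptors in cuprizone replicate 1 and 22.1% to 27.0% in the other libraries. Tyro3 was the largest share in every library, at 71.9% and 48.1% in the cuprizone and 53.1% and 56.8% in the mock libraries, so the mix of the 3 receptors did not separate the groups.

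Megf10, the scavenger receptor that works beside Mertk in astrocytes, had 12.5 and 13.3 CPM in the cuprizone and 15.6 and 19.2 CPM in the mock libraries. Cuprizone replicate 2 and mock replicate 1 stood close to each other, and the groups did not overlap. The log2 fold was -0.50 (SE 0.34), with an edgeR adjusted p of 0.621.

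Of the ligands, Mfge8 was the most abundant gene of the group, at 259.6 and 202 CPM in the cuprizone and 376 and 382 CPM in the mock libraries. It stood at the 96.4th percentile of levels among genes tested. The mock libraries agreed closely, and both cuprizone libraries were lower, a mean of 231 CPM ± 40.6 against 379 ± 3.76 (SD, n = 2 each). The log2 fold was -0.79 (SE 0.17), which is 1.72-fold lower. The edgeR adjusted p was 0.181; it was 0.00166 with DESeq2, where the direction and size were the same, and over 14 alternatives it ran from 0.00166 to 0.461.

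Gas6, the ligand of all 3 TAM receptors, had 45.2 and 46.7 CPM in the cuprizone and 66.7 and 67.2 CPM in the mock libraries. Replicates lay close together in both groups, and the groups were well apart. The log2 fold was -0.61 (SE 0.20), with an edgeR adjusted p of 0.285, and it lay between -0.65 and -0.58 whichever library was left out.

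Pros1, which binds Mertk and Tyro3, was scarce at 6.73 and 4.28 CPM in the cuprizone and 9.36 and 13.4 CPM in the mock libraries. Its log2 fold was -1.12 (SE 0.47; edgeR adjusted p = 0.401). Per kb, Gas6 exceeded Pros1 8.70-fold and 14.1-fold in the cuprizone and 9.23-fold and 6.49-fold in the mock libraries, so the balance of the 2 ligands overlapped between groups.

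Among the integrin subunits, Itgb5, the beta chain that takes Mfge8, had 4.72 and 6.63 CPM in the cuprizone and 10.9 and 12.3 CPM in the mock libraries, with no overlap. Its log2 fold was -1.10 (SE 0.43), with an edgeR adjusted p of 0.369.

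Itgb8 had 33.2 and 32.7 CPM in the cuprizone and 25.0 and 49.9 CPM in the mock libraries. The cuprizone libraries lay between the 2 mock libraries. Its log2 fold of -0.26 (SE 0.36; edgeR adjusted p = 0.866) was 0.35 without mock replicate 2 and -0.67 without mock replicate 1.

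Itgav, the alpha chain shared by both, had 33.6 and 45.1 CPM in the cuprizone and 33.3 and 67.3 CPM in the mock libraries. It showed the same split of the mock pair as Itgb8. The log2 fold of -0.42 (SE 0.37; edgeR adjusted p = 0.732) was 0.20 without mock replicate 2 and -0.84 without mock replicate 1.

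Per kb of the longest coding transcript, Itgb8 exceeded Itgb5 2.75-fold and 1.92-fold in the cuprizone libraries, and the ratio was 0.900 and 1.58 in the mock libraries. This ratio, 1 of 5 formed within libraries, was higher in both cuprizone libraries, while the other 4 overlapped. It has no test. Itgav stood at 0.885 and 1.08 times the sum of Itgb5 and Itgb8 in the cuprizone and at 0.751 and 0.985 times in the mock libraries.

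**Figure D2:**
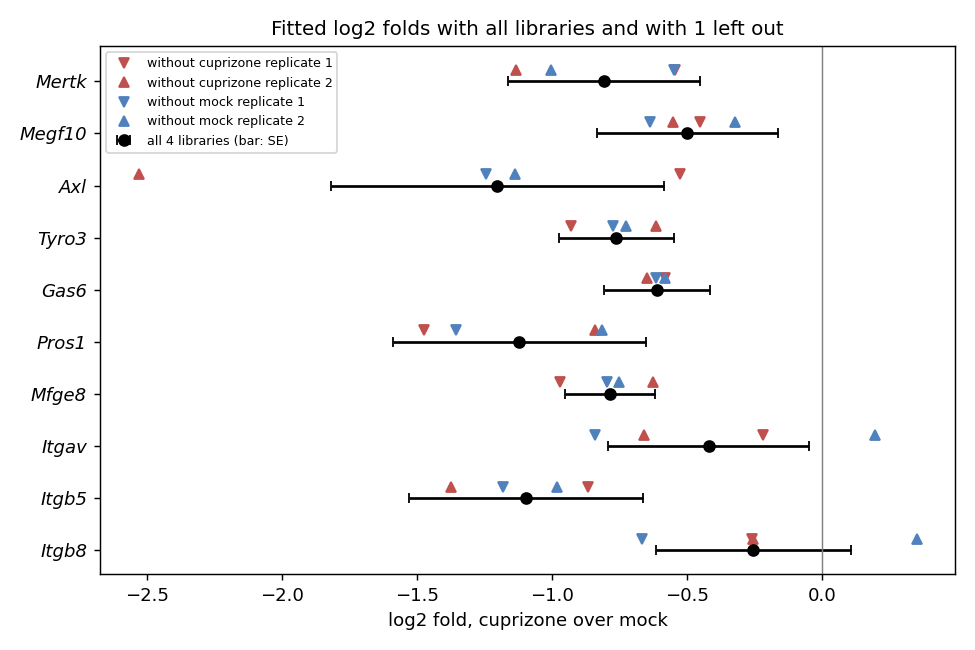
Fitted log2 fold (horizontal axis, cuprizone over mock) with its SE from all 4 libraries (black), and the fold with 1 library left out (red triangles for a cuprizone library, blue for a mock library). Axl spreads from -2.53 to -0.53, and Itgav and Itgb8 cross 0 without mock replicate 2.

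Levels can be compared between genes only per length, here as CPM per kb of the longest coding transcript in GENCODE M21. In the mock libraries Mfge8 led at 178 ± 1.77 (SD, n = 2), then Gas6 at 26.3 ± 0.157, Tyro3 at 15.5 ± 0.198, Itgav at 7.13 ± 3.41 and Axl at 6.57 ± 0.270. Below them stood Mertk at 6.14 ± 1.43, Itgb8 at 4.46 ± 2.09, Itgb5 at 3.53 ± 0.313, Pros1 at 3.45 ± 0.872 and Megf10 at 2.32 ± 0.333. The first 3 places were the same in the cuprizone libraries and separate from their neighbours in both groups. From Itgav down to Pros1, each gene's mock libraries overlapped those of the next, so that order is not resolved; Megf10 lay below Pros1 in the mock but not in the cuprizone libraries. On the length of all annotated exons Mfge8 stood at 80.8 in the mock libraries and still led, with Gas6 and Tyro3 next, but Mertk and Axl then stood above Itgav.

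The genes lie on GRCm38 as follows, and counts are for whole genes, exons and untranslated parts together. Mertk (ENSMUSG00000014361) spans 128698956 to 128802894, Tyro3 (ENSMUSG00000027298) 119797733 to 119818104 and Itgav (ENSMUSG00000027087) 83724397 to 83806916 on chromosome 2. Axl (ENSMUSG00000002602) spans 25757273 to 25788705 and Mfge8 (ENSMUSG00000030605) 79133768 to 79149060 on chromosome 7. Pros1 (ENSMUSG00000022912) spans 62854307 to 62929346 and Itgb5 (ENSMUSG00000022817) 33829665 to 33949338 on chromosome 16. Gas6 (ENSMUSG00000031451) lies at 13465374 to 13494490 on chromosome 8, Itgb8 (ENSMUSG00000025321) at 119158022 to 119238802 on chromosome 12 and Megf10 (ENSMUSG00000024593) at 57133090 to 57297467 on chromosome 18. Exons of Itgav share 634 bases with the opposite-strand transcript Gm13684 and those of Gas6 share 34 bases with Tmem255b, and without a stated strand setting reads there cannot be told apart.

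Some astrocyte markers were lower in the same libraries and others were not. The 12 markers summed to 5899 and 6686 CPM in the cuprizone and 9700 and 9330 CPM in the mock libraries, and all 12 had counts in all 4 libraries. In pulled-down RNA, fewer tagged cells and less RNA per cell cannot be told apart. In 5 of the 12 both cuprizone libraries lay below both mock libraries, and in the other 7 the groups overlapped (18.9% of all genes tested were lower in this way). Their median log2 fold was -0.29, against -0.77 for the 10 receptors and ligands. EdgeR called 0 of the 12, with 5 lower at an unadjusted p under 0.05 (7.04% of all genes). DESeq2 called 4 (4.52% of all genes) and limma-voom 2 (0.297% of all genes). The markers did not move alike: Gfap had a log2 fold of -1.20 (SE 0.15), the glutamate transporter Slc1a2 -1.68 (SE 0.22) and the glycolytic enzyme Aldoc, which made up 41.9% to 50.2% of the sum, -0.55 (SE 0.14), while the transcription factor Sox9 had 0.16 (SE 0.21). Rpl22, the tagged protein, had a log2 fold of -0.29 (SE 0.28; edgeR adjusted p = 0.767).

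Relative to these markers, most of the receptors and ligands no longer separated the groups. Per 1000 counts of the 12 markers, Mfge8 had 44.0 and 30.2 counts in the cuprizone and 38.8 and 40.9 in the mock libraries, and Gas6 had 7.66 and 6.99 against 6.87 and 7.21. Megf10 had 2.13 and 1.99 in the cuprizone and 1.61 and 2.06 in the mock libraries, and Mertk 2.16 and 2.83 against 3.17 and 2.36. Itgb5 alone of the 10 stayed lower in both cuprizone libraries, with 0.800 and 0.992 against 1.12 and 1.32. On this scale the median log2 fold of the 10 was -0.09, and that of all genes tested was 0.67. Since Aldoc dominates the sum, the geometric mean of the same markers was also used: 3 genes then stayed lower in both cuprizone libraries (Axl, Pros1 and Itgb5), the median of the 10 was -0.25 and that of all genes tested 0.51. The signs turned on both scales for Megf10 (0.17 with the sum, 0.01 with the geometric mean), Itgav (0.23 and 0.09) and Itgb8 (0.41 and 0.27), and with the sum only for Gas6 (0.06). The share of all genes that stayed lower in this way was not computed on either scale, so these counts have no background to be read against. Both scales were chosen after the values were seen.

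**Figure D3:**
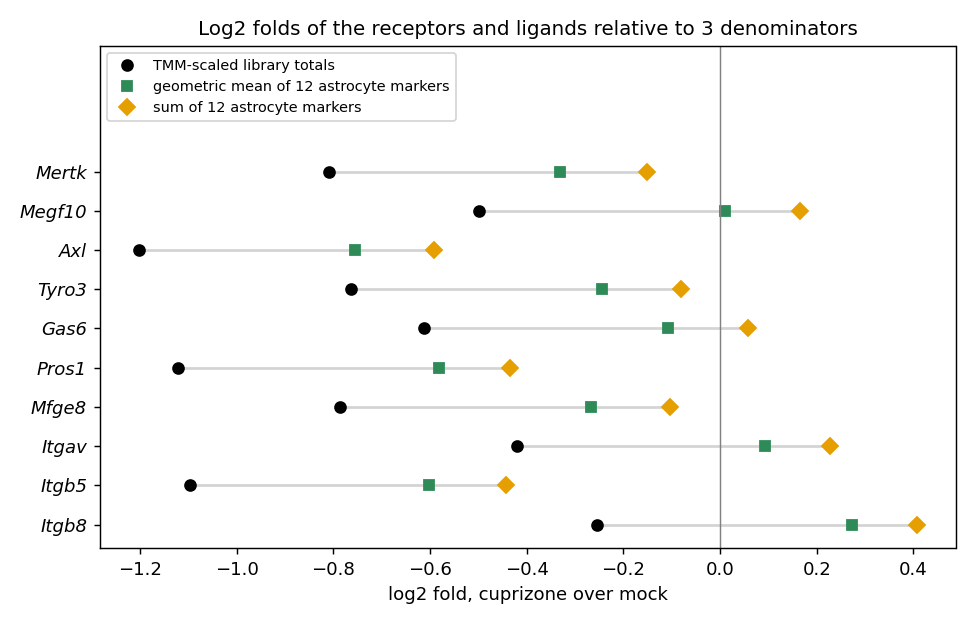
Fitted log2 fold (horizontal axis, cuprizone over mock) of each gene relative to TMM-scaled library totals (black circles), to the geometric mean of 12 astrocyte markers (green squares) and to their sum (orange diamonds). All 10 lie below 0 on library totals, and 6 of the 10 still do with the sum of the markers, with a median of -0.09.

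Markers of other cells that use these genes were measured beside them. Microglia, which use Axl and Mertk, had 10 markers summing to 21.4 and 18.4 CPM in the cuprizone and 28.2 and 32.5 CPM in the mock libraries. Of the defining microglial genes, Cx3cr1 and Aif1 had no count in either cuprizone library, which allows up to 0.137 CPM, and Itgam had none in any library. The 9 endothelial markers summed to 40.7 and 39.8 CPM in the cuprizone and 44.0 and 57.6 CPM in the mock libraries, with Cdh5 at 0 in all 4. Most of these sums was Slco1c1, with 35.6 and 22.7 CPM in the cuprizone and 33.4 and 46.8 CPM in the mock libraries. Only 4 of the 9 could be tested, 2 with a negative and 2 with a positive fold. The 6 fibroblast markers summed to 21.2 and 22.2 CPM against 65.3 and 44.2 CPM, with Col3a1 at 0 in all 4 and Pdgfra, which oligodendrocyte precursors also make, among the 6. The 8 pericyte and smooth muscle markers summed to 16.8 and 17.7 CPM in the cuprizone and 31.4 and 22.2 CPM in the mock libraries, with Kcnj8 and Abcc9 at 0 in all 4. Of these sums Rgs5 gave 5.22 and 10.6 CPM in the cuprizone and 24.8 and 18.0 CPM in the mock libraries. The 4 tested markers did not move alike: 1 had a negative and 3 had a positive fold, with a median log2 fold of 0.58.

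Oligodendrocyte and neuron genes were far more abundant. The 12 neuron markers summed to 15072 and 15085 CPM in the cuprizone and 13286 and 13649 CPM in the mock libraries. Snap25 alone had 9900 and 10010 CPM in the cuprizone and 8292 and 8297 CPM in the mock libraries. Of the 12, 5 had negative and 7 positive folds, with a median log2 fold of 0.09. The groups did not overlap in 3 that were lower and 5 that were higher (18.9% and 25.7% of all genes tested). The 10 oligodendrocyte markers summed to 10517 and 13629 CPM in the cuprizone and 13188 and 15315 CPM in the mock libraries, and the 7 precursor markers to 115 and 120.4 CPM against 124 and 134 CPM. The sum of the precursor markers joins genes on both sides, with a median log2 fold of -1.21. In both cuprizone libraries 5 of the 7 were lower (Pdgfra, Cspg4, Vcan, Gpr17 and Matn4), as were 18.9% of all genes tested. The other 2 were higher (Olig2 and Sox10), as were 25.7% of all genes tested. At an unadjusted edgeR p under 0.05 there were 1 lower (Pdgfra) and 1 higher (Sox10). All markers of these 3 lists had counts in all 4 libraries. The part of other cells in the folds of the 10 genes was not tested.

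Around the 10 genes, 7 lists of the same process held 94 genes, of which 78 could be tested. EdgeR called 0 of the 78, DESeq2 6 (4.52% of all genes tested) and limma-voom 1 (0.297% of all genes). At an unadjusted edgeR p under 0.05 there were 13 lower and 5 higher, where 7.04% of all genes were lower and 5.73% higher. The genes named in each list followed a rule of abundance and unadjusted p, so they are the most abundant gene of the list, whatever its fold, and those with the smallest p.

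Adaptors and cytoskeletal effectors, which turn a bound particle into an engulfed one, held 7 negative and 7 positive folds, with a median of 0.05 on the log2 scale. The groups did not overlap in 1 gene that was lower and 5 that were higher, where 18.9% of all genes tested were lower and 25.7% higher in this way. Trio, an exchange factor for Rac and RhoG, had 56.2 and 47.3 CPM in the cuprizone and 14.7 and 21.03 CPM in the mock libraries, a log2 fold of 1.46 (SE 0.29; edgeR adjusted p = 0.159, DESeq2 0.000881). Ptk2, the focal adhesion kinase that acts downstream of Mertk and the integrins, had 98.15 and 99.2 CPM against 50.2 and 66.7 CPM, a log2 fold of 0.69 (SE 0.21; edgeR adjusted p = 0.270). Elmo2, a partner of Dock1 in activating Rac1 and the most abundant of the list, had a log2 fold of -0.004 (SE 0.23).

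Other engulfment receptors had a median of -0.30 over 9 tested genes of 16, and Timd4, Havcr1, Cd300lf and Msr1, receptors of macrophages or injured epithelium, had no count in any library. Lrp1, a large scavenger receptor of astrocytes and neurons, had 14.4 and 15.9 CPM in the cuprizone and 45.6 and 59.4 CPM in the mock libraries. Its log2 fold was -1.86 (SE 0.27), with an edgeR adjusted p of 0.108 and a DESeq2 adjusted p of 2.2e-06. Scarb1, which takes up lipoproteins and phosphatidylserine, had a log2 fold of -1.17 (SE 0.46; edgeR adjusted p = 0.369). Lrp1 thus stood further down than any of the 10 genes in the fit with all 4 libraries.

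Other bridging molecules and opsonins had a median of -0.53 over 11 tested genes of 14. C1qb and C1qc, complement chains made mainly by microglia, had 0.0458 and 0.462 CPM (C1qb) and 0.0458 and 0.588 CPM (C1qc) in the cuprizone libraries. In the mock libraries C1qb had 3.30 and 8.20 CPM and C1qc 2.35 and 3.77 CPM, with edgeR adjusted p of 0.233 and 0.383. Calr, the ER chaperone that also serves as an eat-me signal, had 229.6 and 158 CPM in the cuprizone against 348 and 322 CPM in the mock libraries, a log2 fold of -0.86 (SE 0.21; edgeR adjusted p = 0.200, DESeq2 0.0024).

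Genes of phosphatidylserine exposure and do-not-eat signals had a median of -0.31 over 11 tested genes. Tmem30a, the partner of the flippases that keep phosphatidylserine inside, had a log2 fold of -0.71 (SE 0.16; edgeR adjusted p = 0.194, DESeq2 0.004). The do-not-eat pair Cd47 and Sirpa stood at -0.64 (SE 0.21) and -0.65 (SE 0.23), with edgeR adjusted p of 0.304 and 0.325. Both were among the 4 of the 11 with both cuprizone libraries below both mock libraries (18.9% of all genes tested). In 1 of the 11 both cuprizone libraries were higher (25.7% of all genes tested).

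The 6 genes that carboxylate the ligands or shed the receptors had a median of -0.26, and none had an unadjusted p under 0.05 in either direction. Adam10, a protease that sheds Axl and the most abundant of them, had a log2 fold of -0.29 (SE 0.25) with overlapping groups.

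Other integrin subunits and genes of latent TGF-beta had a median of -0.38 over 15 tested genes of 20. Tgfbr2, a receptor of TGF-beta, had 1.49 and 1.18 CPM in the mock libraries and no count in the cuprizone libraries, which is at least 20.4-fold lower against a floor of 3 counts over the 2 cuprizone libraries together. Its edgeR adjusted p was 0.245. Itga8, an alpha chain that also binds the arginine-glycine-aspartate triplet, had 0.137 and 0.672 CPM in the cuprizone and 5.52 and 2.92 CPM in the mock libraries (edgeR adjusted p = 0.285). Smad3, the most abundant of the list, had a log2 fold of 0.08 (SE 0.31).

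Genes of phagosome maturation had a median of 0.21 over 12 genes, 9 positive and 3 negative, with groups that did not overlap in 6 higher (25.7% of all genes tested) and 3 lower (18.9%). Lamp1, a membrane protein of late endosomes and lysosomes, had 100.5 and 91.4 CPM in the cuprizone and 218 and 195 CPM in the mock libraries, a log2 fold of -1.18 (SE 0.17; edgeR adjusted p = 0.1001, DESeq2 5.69e-07). Vps18, which tethers late endosomes, had 27.1 and 44.2 CPM against 13.7 and 19.1 CPM, a log2 fold of 1.05 (SE 0.36; edgeR adjusted p = 0.313). Rab7, the GTPase that marks late phagosomes and the most abundant of the list, had 0.03 (SE 0.14).

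**Figure D4:**
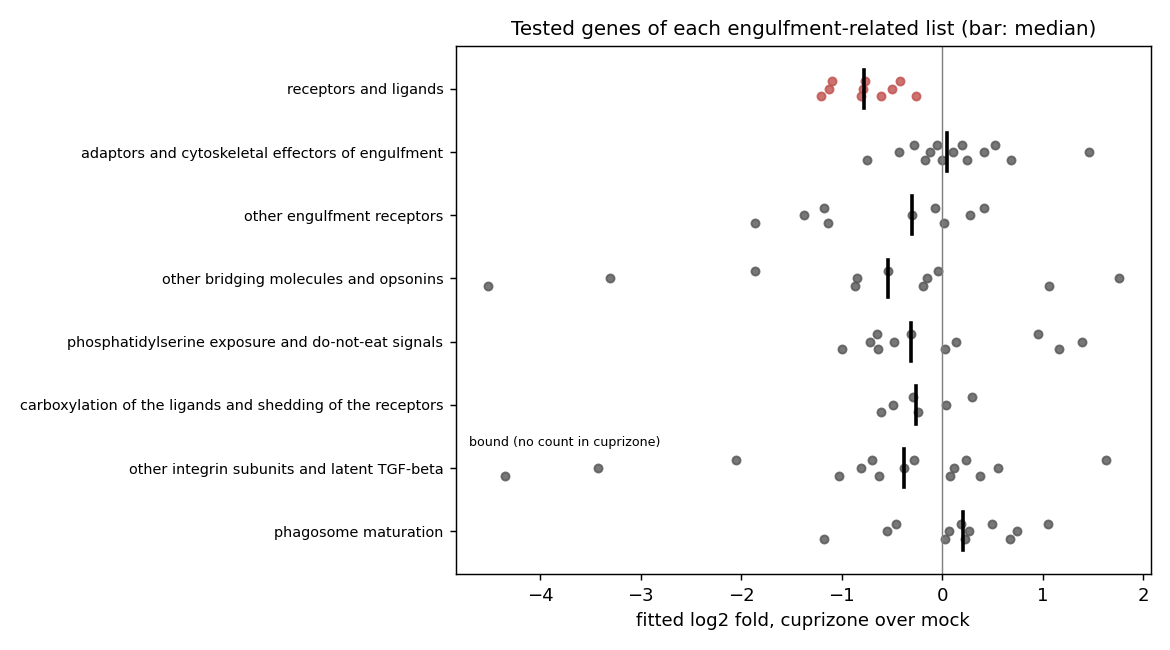
Fitted log2 fold (horizontal axis, cuprizone over mock) of each tested gene, in red for the 10 receptors and ligands and in grey for the 7 lists, with black bars for medians. All 10 receptors and ligands lie below 0 (median -0.77), while the adaptors (median 0.05) and phagosome genes (median 0.21) lie on both sides; Tgfbr2, without counts in cuprizone, is drawn at its bound.

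Genes with a pattern like that of Mertk and Megf10 over the 4 libraries were sought among the other genes tested with a mean of at least 1 CPM, 14008 in each case. Likeness was the root mean square distance of centred log2(CPM + 0.5). Nearest to Mertk were Usf1, a transcription factor (distance 0.0149, log2 fold -0.80), Grin3a, a subunit of glutamate receptors (0.0388, -0.80), and Hook2 (0.0482, -0.80). Nearest to Megf10 were Leprotl1 (0.0257, -0.45), Idi1, an enzyme of sterol synthesis (0.0258, -0.46), and Lgi3 (0.0268, -0.52). The distances say nothing of shared function or control.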

How the data were processed

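RNA from ribosome pull-downs was sequenced in 4 libraries, and the authors deposited 1 table of raw counts per Ensembl gene for each, without normalization. The submitters' processing notes name GRCm38 and, as tools, featureCounts 1.6.0, STAR 2.5.4b and FastQC 0.11.9. The sources used here do not give the annotation release, the strand setting or the treatment of multi-mapping reads. Per the labels' protocols, libraries were made from column-purified RNA with a low-input kit. Library totals ran from 21209517 to 23822620 counts, so 3 counts are worth 0.126 to 0.141 CPM, a limit that covers counting error only. Neither replicate pair agreed within sampling noise (chi-square per degree of freedom 56.5 and 35.1).

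Symbols matched 55144 of 55471 ids. The test across genes, on all 4 libraries, was that of edgeR 4.0.16 (R 4.3.3): filterByExpr, TMM, glmQLFit (robust, legacy estimation) and glmQLFTest, 2-sided, adjusted over 15816 genes. The SE is the log2 fold divided by the square root of F. The script was tested on simulated data. The 10 genes, the lists and the naming rule were chosen with earlier results of these data known. The rule named, per list, the most abundant tested gene and up to 2 more with the smallest unadjusted p under 0.05, as no list gene was called, and the 3 genes nearest in pattern to Mertk and to Megf10. Alternatives were other scalings and filters, DESeq2 1.42.0, limma-voom (limma 3.58.1), other dispersion estimates, a replicate block and leaving out each library.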

Additional observations from a re-analysis of the deposited data

How the results depend on the processing

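Over 14 other settings of the fit, 8 of the 10 genes (all but Itgav and Itgb8) kept a negative log2 fold in all 14. Itgav and Itgb8 kept it in 13, and without mock replicate 2 they stood at 0.1963 and 0.3488, against -0.8404 and -0.6687 without mock replicate 1. EdgeR under each of these settings that used it, and limma-voom, called 0 of the 10 in either direction, while DESeq2 called 1 lower: Mfge8, at a log2 fold of -0.7807 (adjusted p = 0.001664). The median of the 10 ran from -0.78 to -0.56 with 1 library left out. The number with cuprizone below mock in all remaining libraries ran from 8 to 10. Leaving out a library cannot bring this number under 8, since groups that do not overlap stay apart, so it is no check. Its share over all genes with 1 library left out was not computed.

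Scaled to the sum of astrocyte markers, an alternative chosen after seeing the data, that number was 1 and the median -0.092, with log2 folds of 0.1658 for Megf10, 0.0572 for Gas6, 0.2266 for Itgav and 0.4067 for Itgb8. Scaled to their geometric mean, it was 3 and the median -0.2549, with 0.0106 for Megf10, 0.0921 for Itgav and 0.2724 for Itgb8. The share of all genes lower in this way was not computed on these scales. The cause was not tested.

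Over all genes, the 8 lower and 5 higher calls became 451 and 264 with DESeq2, 38 and 9 with limma-voom, 42 and 9 with bias-adjusted dispersions, 146 and 45 with no filter and, keeping genes that average 1 CPM or more, 54 and 14. Leaving out a library gave from 3 to 71 lower and from 2 to 52 higher.

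Same-numbered replicates did not deviate together (correlation 0.002 across genes). This value does not settle whether the numbers pair the libraries, and the labels do not state it. With the replicate block the fit called 5 lower and 5 higher over all genes and 0 of the 10, and the median of the 10 was -0.7836.

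Depth was similar across libraries. Genes under about 1 CPM, such as C1qc and Tgfbr2 in the cuprizone libraries, rest on few or no counts.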
